A study of Rattus norvegicus with 3 samples.

Results

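NADPH oxidases are enzymes that make superoxide, and superoxide dismutases are the enzymes that remove it. The 9 genes described here were Cybb, Nox1 and Nox4 (catalytic oxidase subunits), Cyba, Ncf1 and Rac2 (their membrane partner, organizer and activator), and Sod1, Sod2 and Sod3 (dismutases). They were taken as a named gene set, through array probes whose RefSeq accession belongs to 1 of the 9, out of 15292 genes matched on either array design. All 9 had at least 1 probe on every array. Expression was measured in total RNA of male Wistar rats, taken from the common carotid artery as a whole. The 3 groups were the uninjured artery, the artery 7 days after balloon injury and the artery 21 days after balloon injury. Balloon injury draws an inflated balloon through the vessel, which removes the endothelial lining and stretches the wall. Each group was represented by 1 one-colour Agilent array. The series' design text speaks of independent experiments with different rats at each time, but the samples hold 1 array per group. No age was given in the labels, and RNA came from the wall as a whole, so fewer cells of a type and less RNA per cell cannot be told apart.

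NADPH oxidases pass electrons from NADPH across a membrane to oxygen. The phagocyte form consists of NOX2 (encoded by Cybb) held in the membrane by p22phox (Cyba), and it becomes active when p47phox (Ncf1) and other cytosolic proteins join it together with the GTPase Rac, which in leukocytes is mainly Rac2. NOX1 and NOX4 share the partner encoded by Cyba and are the forms most studied in smooth muscle, where NOX4 is active without the organizer and releases mainly hydrogen peroxide. Superoxide dismutases turn superoxide into hydrogen peroxide and oxygen: Sod1 encodes the copper-zinc enzyme of the cytosol, Sod2 the manganese enzyme of mitochondria, and Sod3 the secreted enzyme that binds the extracellular matrix and is abundant in arteries.

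Promoters are shown for Cybb, Cyba and Ncf1, which encode core proteins of the phagocyte enzyme and were all higher at day 21. Each run is the 250 bases before the annotated transcription start, 5′ to 3′ on the gene's strand, from RefSeq on the GRCr8 assembly. Capitals mark the letters GAGGAA, a string found in sites of the ETS factor PU.1, or GGGCGG, the GC box of Sp1, on either strand. Other letters of ETS sites were not searched for.
Cybb, chrX:16065066-16065315, minus strand: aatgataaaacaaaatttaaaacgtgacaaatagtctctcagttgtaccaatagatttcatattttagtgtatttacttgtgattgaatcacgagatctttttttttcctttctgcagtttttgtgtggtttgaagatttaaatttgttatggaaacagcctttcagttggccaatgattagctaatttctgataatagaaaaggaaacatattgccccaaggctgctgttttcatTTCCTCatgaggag
Cyba, chr19:67404215-67404464, minus strand: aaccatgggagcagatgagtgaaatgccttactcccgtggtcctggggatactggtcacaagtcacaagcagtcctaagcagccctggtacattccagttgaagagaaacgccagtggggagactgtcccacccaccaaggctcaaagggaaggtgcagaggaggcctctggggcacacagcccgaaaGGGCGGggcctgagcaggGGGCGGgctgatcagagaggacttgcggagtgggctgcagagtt
Ncf1, chr12:28121635-28121884, plus strand: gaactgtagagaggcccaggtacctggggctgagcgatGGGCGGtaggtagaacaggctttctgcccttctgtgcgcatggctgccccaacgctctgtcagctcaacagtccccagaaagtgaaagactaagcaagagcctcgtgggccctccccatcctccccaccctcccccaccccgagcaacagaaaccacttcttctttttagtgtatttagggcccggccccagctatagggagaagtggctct

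The Cybb window held 1 match to GAGGAA, read on the opposite strand, from 14 to 9 bases before the start, and no GC box. The Cyba window held 2 GC boxes, from 62 to 57 and from 44 to 39 bases before the start, and the Ncf1 window held 1, from 212 to 207 bases before it. Neither of these had a match to GAGGAA. The Ncf1 window also held 1 match to TGACNNNGC, the core of the antioxidant response element bound by NRF2, on the opposite strand from 159 to 151 bases before the start. Among 33469 annotated promoter windows of the same length, 23.3% held GAGGAA, 30.5% held GGGCGG and 10.1% held TGACNNNGC, on either strand. The GC content was 32.0% for Cybb, 59.6% for Cyba and 58.4% for Ncf1. Promoter entries matched 7 of the 9 genes. GGGCGG was also present for Nox4 with 2 matches and for Sod1 and Sod2 with 1 each, GAGGAA for Nox1 with 1, and TGACNNNGC for Sod2 with 1. A match is a description of the letters only.

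The uninjured and day 21 arrays shared 1 design and 1 scan, whereas the array for day 7 had a different probe set, a separate scan and a newer software release, so that day 7 and the array design cannot be told apart. The uninjured array was the dimmest: the 75th percentile of its probe signals was 49.6 intensity units, against 210 for day 7 and 135 for day 21. These values come from each array's own probe set. On the probes present on both designs the percentile was 126.9 for uninjured, 230.4 for day 7 and 383.6 for day 21, so day 21 was the brightest there. Probes well above background made up 59.8%, 76.6% and 66.7% of each array in that order, and no spot was saturated. Levels are given as log2 signal relative to the 75th percentile of the array, so 0 means a signal equal to that percentile. The value after ± is a spot SD, which is technical. It was interpolated at the gene's signal from probes with replicate spots, because each probe of the 9 genes had 1 spot per array. With 1 array per group no test was possible and no p-value is given. A ratio of at least 2-fold served as the threshold. A gene not well above background on 1 of the arrays has a lower bound, written as "at least". Such a bound holds for the processing used and can be smaller under another. The scaling moved the median of all genes, and quantile normalization and cyclic loess also moved genes by unequal amounts. In the comparison of day 21 with uninjured the median of all genes was -0.17 as reported, 0.30 after median scaling, 0.00 after quantile normalization and 0.11 after cyclic loess. Of the genes past 2-fold in that comparison, 40.5% were higher as reported, 73.7% after median scaling, 58.8% after quantile normalization and 69.2% after cyclic loess. The same share was 53.1%, 30.9%, 41.8% and 50.3% for day 7 against uninjured, and 29.5%, 54.2%, 56.5% and 52.8% for day 21 against day 7, in the same order of settings. When every array was scaled on the full probe set of its design, it was 6.7% for day 7 against uninjured and 89.3% for day 21 against day 7. Contractile smooth muscle markers, which mark the muscular layer of the wall, were well above background for 9 of 9 genes on both the day 21 and the uninjured arrays.

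The comparison of day 21 with uninjured asked how the artery differed late after injury. The phagocyte oxidase genes Cybb, Cyba, Ncf1 and Rac2 were 7.4-fold to at least 24.7-fold higher in the injured artery. The mitochondrial dismutase gene Sod2 was 2.19-fold higher, the extracellular one Sod3 was 3.61-fold lower, and the cytosolic one Sod1 was within 2-fold. Of the 9 genes, 5 were at least 2-fold higher, where 10.6% of 10316 genes were, and 1 was at least 2-fold lower, where 15.5% were. The median of the 9 log2 ratios was 1.13, with the bounds of Nox4 and Ncf1 counted at their value, against -0.17 over all genes.

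Cybb, the catalytic core of the phagocyte oxidase, gave a signal of 1055 on the day 21 array and 26.2 on the uninjured array. Relative to the arrays' 75th percentiles the levels were 2.97 at day 21 and -0.92 in the uninjured artery. The injured artery was thus the higher one, by a log2 ratio of 3.88 ± 0.26 (14.7-fold). Relative to the median of all genes the ratio was 4.05 as reported, and it lay between 2.74 and 4.06 over 5 ways of background correction and scaling.

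Nox1, a catalytic subunit that acts with cytosolic partners much as NOX2 does, gave signals of 36.1 at day 21 and 16.8 in the uninjured artery, with levels of -1.90 and -1.56. The log2 ratio of -0.35 ± 0.41 was smaller than its spot SD. Its sign turned after median scaling (0.13), quantile normalization (0.03) and cyclic loess (0.14), so no direction is given for Nox1.

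Nox4, the catalytic subunit that works without the organizer, gave 44.1 at day 21 and 4.03 in the uninjured artery, where it was not well above background. The levels as measured were -1.62 at day 21 and -3.62 in the uninjured artery. The injured artery was higher by at least 1.94-fold, just under the threshold. With no filter on dim probes the log2 ratio was 2.0, and 6 of 9 alternatives put it past 2-fold. With normexp background correction no bound could be given.

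Cyba, Ncf1 and Rac2, the partners among the 9 genes, were all higher at day 21. Cyba, the membrane partner that stabilizes NOX1, NOX2 and NOX4, gave signals of 2664 at day 21 and 107.8 in the uninjured artery. Its levels were 4.30 and 1.12, a log2 ratio of 3.18 ± 0.25 (9.05-fold). This ratio moved least among the higher genes, between 2.96 and 3.66 over 9 alternatives.

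Ncf1, the organizer that brings the cytosolic subunits to the membrane, gave 664.9 at day 21 and 9.87 in the uninjured artery, where it was not well above background. Its levels as measured were 2.30 and -2.33, and the day 21 artery was higher by at least 24.7-fold. This bound equals the ratio as measured, since the uninjured Ncf1 signal was not below the weakest signal well above background on that array. Rac2, the GTPase of blood cells that switches the complex on, gave 323 at day 21 and 16.0 in the uninjured artery. Its levels were 1.26 and -1.63, a log2 ratio of 2.89 ± 0.44 (7.4-fold). Both kept their direction and stayed past 2-fold under all 9 alternatives, with the lowest log2 ratios from normexp background correction, 2.41 for Ncf1 and 1.71 for Rac2.

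The 3 dismutase genes went different ways. Sod1 was measured by 2 probes, whose signals were 25939 and 16134 at day 21, against 8327 and 4899 in the uninjured artery. After scaling the brighter probe gave levels of 7.58 and 7.39 and a log2 ratio of 0.19 ± 0.15, and the other probe gave 0.27 ± 0.15. Both probes of Sod1 were therefore within 2-fold, and the ratio stayed within 2-fold under all 10 alternatives, up to 0.75 with cyclic loess.

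Sod2, the mitochondrial enzyme, gave signals of 266 at day 21 and 44.6 in the uninjured artery, with levels of 0.98 and -0.15. The log2 ratio was 1.13 ± 0.37 (2.19-fold), less than 1 spot SD above the threshold. It was 0.85 with normexp background correction and past 2-fold in the other 8 alternatives.

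Sod3, the extracellular enzyme, gave 14532 at day 21 and 19226 in the uninjured artery, so the raw signals lay close together while the arrays' percentiles did not. After scaling, the levels were 6.75 at day 21 and 8.60 in the uninjured artery. The log2 ratio was -1.85 ± 0.15 (3.61-fold lower at day 21), the only one of the 9 past 2-fold in this direction. It lay between -2.0 and -1.25 over 10 alternatives and between -1.68 and -1.38 relative to the median of all genes.

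**Figure D1:**
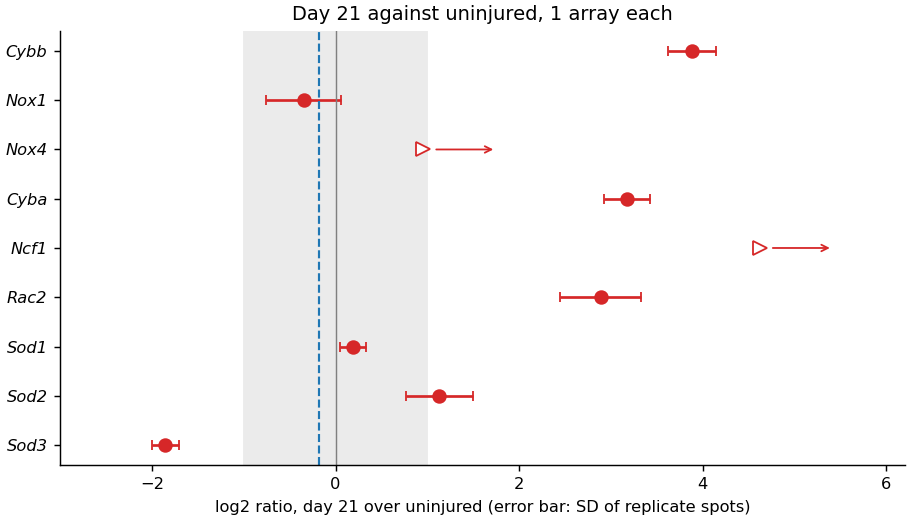
Log2 ratio of day 21 over uninjured for the 9 genes, 1 array each. Error bars are the spot SD, interpolated from probes with replicate spots. Open triangles with arrows are lower bounds under the processing used. The grey band is within 2-fold and the dashed line is the median of all genes (-0.17). Cybb, Cyba and Rac2 lie between 2.89 and 3.88, the bound of Ncf1 lies at 4.62, and Sod3 lies alone on the lower side at -1.85.

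Day 7 could be set against the other arrays only for the 3 genes whose probe is on both designs, Cybb, Nox4 and Sod3. For these, levels were scaled on the 10583 shared probes and differ from the levels above by that scaling. Cybb and Nox4 were at least 2-fold higher at day 7 than in the uninjured artery, where 20.2% of 6651 genes were, and Sod3 was at least 2-fold lower, where 17.9% were. The median of the 3 log2 ratios was at least 2.35, which is the bound of Nox4, against 0.12 over all genes.

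The Cybb signal was 26.2 in the uninjured artery, 304 at day 7 and 1055 at day 21. The scaled levels were -2.27, 0.40 and 1.46, lowest in the uninjured artery and highest at day 21. Day 7 was higher than uninjured by a log2 ratio of 2.67 ± 0.22 (6.38-fold). This ratio was between 1.46 and 2.77 over 10 alternatives, lowest when the arrays were scaled each on its own design.

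Nox4 had its highest level at day 7. Its signal was 4.03 in the uninjured artery, 77.7 at day 7 and 44.1 at day 21, and the scaled levels were -4.98, -1.57 and -3.12. Day 7 was higher than uninjured by at least 5.11-fold. The bound fell under 2-fold with normexp background correction, at a log2 value of 0.58.

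The Sod3 level was 7.24 in the uninjured artery, 6.17 at day 7 and 5.24 at day 21, with raw signals of 19226, 16618 and 14532. Day 7 was lower than uninjured by a log2 ratio of -1.07 ± 0.14 (2.1-fold). The difference was past 2-fold in 6 of 10 alternatives and kept its sign in all 10. Of these 6, 4 only kept flagged spots, changed the filter or averaged probes, which left the ratio of this single probe at -1.07. Median scaling gave -1.45, and scaling each array on its own design gave -2.29. The ratio was -0.54 with quantile normalization, -0.56 with cyclic loess, -0.64 with normexp and -0.75 in the authors' deposited table.

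Between the injured arteries, Cybb at day 21 exceeded day 7 by 2.08-fold (log2 ratio 1.06 ± 0.18), where 11.2% of 6796 genes were at least 2-fold higher. Nox4 was 2.94-fold lower at day 21 (-1.55 ± 0.31), where 26.6% were at least 2-fold lower. Sod3 was at -0.93 ± 0.16, within 2-fold. The median over the 3 genes was -0.93, and over all genes it was -0.23. All 3 differences were larger than their spot SD. They depended on the scaling across designs: when the arrays were scaled each on its own design Nox4 was at -0.18 and Sod3 turned to 0.44, while the median of all genes moved to 1.14. Relative to the median of all genes, Cybb lay between 1.03 and 1.29, Nox4 between -1.33 and -0.73 and Sod3 between -0.88 and -0.70 over 6 settings. Cybb was under 2-fold with normexp (0.73), and Nox4 also with cyclic loess (-0.74) and in the authors' deposited table (-0.63).

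**Figure D2:**
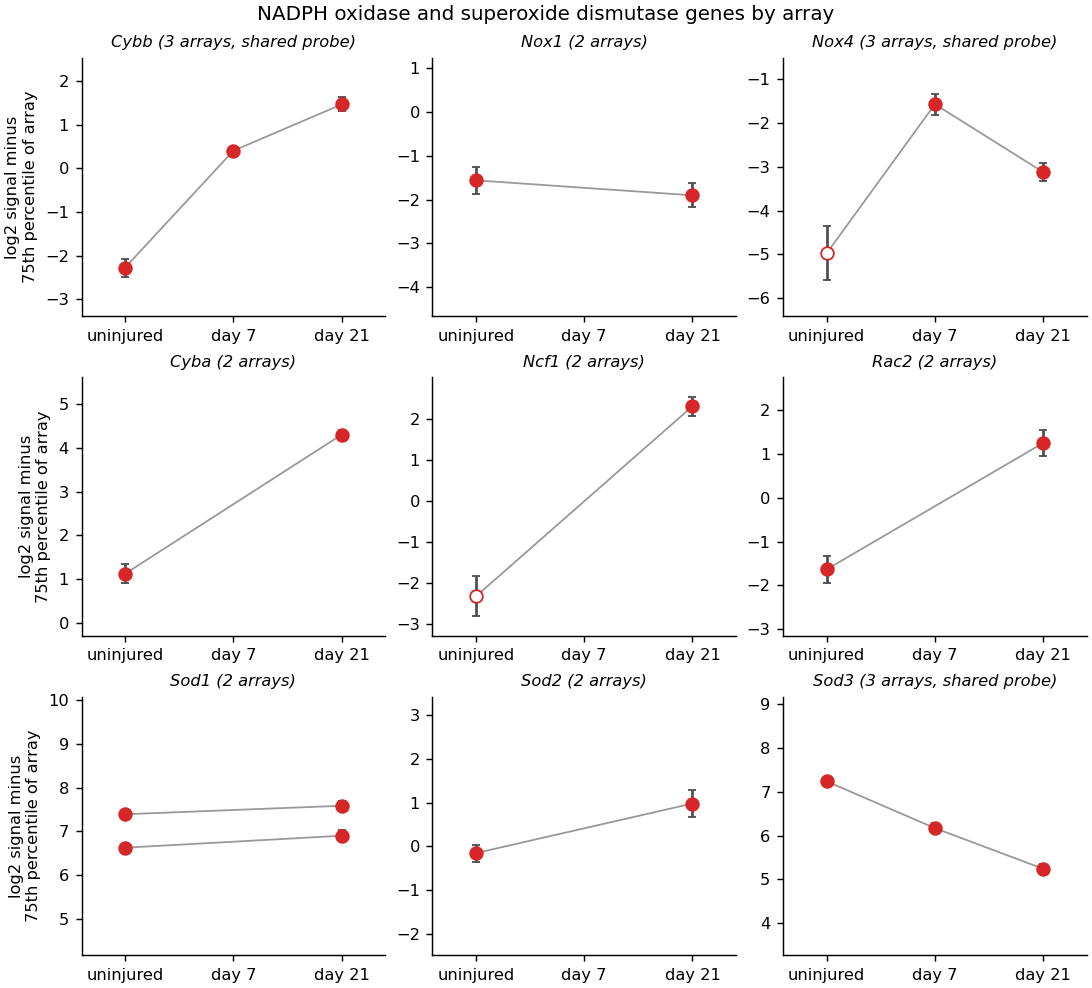
Levels (log2 signal minus the 75th percentile of the array) of the 9 genes by array. Error bars are the spot SD, interpolated from probes with replicate spots. Open circles are not well above background, and Sod1 has 2 probes. Cybb, Nox4 and Sod3 are scaled on the 10583 shared probes and have 3 points, the other 6 genes are on the design of the uninjured and day 21 arrays and have 2; Cybb climbs through the 3 groups, Nox4 peaks at day 7 and Sod3 declines.

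The other 6 genes were measured on the day 7 array by probes of its own design, so these values stand alone. Cyba gave a signal of 8101 there, Ncf1 1657 and Rac2 1382. Sod1 gave 7121, Sod2 1236 and Nox1 83.4. All 6 were well above background at day 7. Their levels relative to the 75th percentile of that array were 5.27 for Cyba, 2.98 for Ncf1, 2.72 for Rac2, 5.09 for Sod1, 2.56 for Sod2 and -1.33 for Nox1. No ratio to the other arrays was formed, because a different probe of the same gene can bind with a different strength.

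The authors' deposited table lists all 9 genes at all 3 times on a log2 scale, but it is keyed by probes of the day 7 design. For 3957 of its 9260 rows that probe is not on the uninjured and day 21 arrays. In the 2974 of these whose gene accession has exactly 1 probe on those arrays, the table's uninjured values ranked like the signal of that other probe (Spearman correlation 0.995 across probes). Cyba, Ncf1, Nox1, Rac2 and Sod2 are among these, so only their day 21 and uninjured values share a probe. Sod1 is also listed under a probe of the day 7 design, but it has 2 probes on the older one and was not part of this check, so the probe behind its uninjured and day 21 values is unknown. In the authors' deposited table the day 21 value minus the uninjured value was 4.07 for Cybb, 2.96 for Cyba, 5.55 for Ncf1 and 3.37 for Rac2. It was 2.87 for Nox4 in the authors' deposited table, where the uninjured value of 2.39 is the lowest in its column. In the authors' deposited table Nox1 was at -0.12, Sod1 at 0.64, Sod2 at 1.12 and Sod3 at -1.25. These log2 differences had the direction given above for every gene for which one was given.

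**Figure D3:**
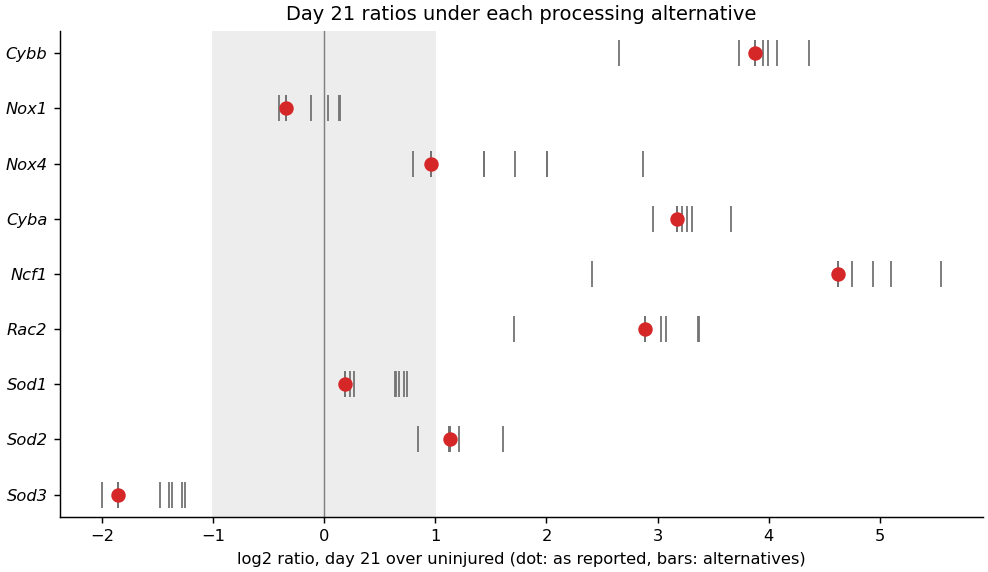
Log2 ratio of day 21 over uninjured for the 9 genes as reported (red dots) and under each processing alternative (grey bars); the grey band is within 2-fold. Cybb, Cyba, Ncf1 and Rac2 stay above the band and Sod3 below it in all alternatives, Sod2 enters it once at 0.85, and Nox1 falls on both sides of 0.

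The wider oxidase list held 22 catalytic subunits, partners, regulators and assembly factors, chosen with earlier results of these data known. At day 21, 8 of the 16 genes with a value were at least 2-fold higher than in the uninjured artery. In the other direction 1 was at least 2-fold lower, where over all genes 10.6% were higher and 15.5% lower. The median log2 ratio of the list was 1.07. Besides Cybb, Cyba, Ncf1 and Rac2, the higher ones were Ncf4, the cytosolic subunit p40phox (3.29 ± 0.35), Prkcb, a kinase that phosphorylates the organizer (3.13 ± 0.29), Rac1, the widely expressed GTPase (1.18 ± 0.36), and Vav1, an exchange factor of Rac in blood cells, at least 9.24-fold. Duox1, a dual oxidase known from epithelia, was lower (-1.93 ± 0.53). The other members of the list with a value were within 2-fold at day 21. Cybc1, which helps NOX2 mature, was at 0.65 ± 0.24, while Duox2, a second dual oxidase, was at -0.82 ± 0.29, its partner gene Duoxa1 at -0.76 ± 0.30, Noxa1, an activator of NOX1, at -0.83 ± 0.52, and Sh3pxd2a, an organizer-like scaffold, at -0.68 ± 0.38. The list median stayed between 1.03 and 1.55 over 9 alternatives.

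At day 7, 8 genes of the oxidase list were on shared probes, of which 5 were higher and 1 was lower than uninjured. The shares over all genes were 20.2% and 17.9%, and the list median was 1.76. Over 9 alternatives 2 to 6 of the 7 or 8 genes with a value were higher and the list median ran from 0.43 to 2.20, lowest with normexp (2 of 7 higher). Ncf4 was at 2.49 ± 0.26 and Vav1 at least 4.88-fold higher, while Rac1 was lower (-1.01 ± 0.36). The Rac1 value was at the threshold and past it in 7 of 9 alternatives, which ran from -2.23 to -0.59. Rac1 at day 21 was above day 7 by 2.05 ± 0.42. Duoxa1, which helps dual oxidases leave the endoplasmic reticulum, was higher at day 7 than uninjured (1.22 ± 0.24). It was past 2-fold in 6 of 9 alternatives, which ran from 0.005 to 1.22.

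Among the dismutases and the genes that supply their copper, at day 21, 2 of 6 with a value were higher by at least 2-fold. In the same list 1 was lower, and the median was 0.04. The shares over all genes were 10.6% higher and 15.5% lower. Ccs, the chaperone that loads copper into SOD1, was higher at day 21 (1.79 ± 0.34) and at day 7 (1.70 ± 0.22) than in the uninjured artery. Atox1, the chaperone that feeds copper to the secretory pathway where SOD3 receives it, was at -0.10 ± 0.15 at day 21 and -0.17 ± 0.14 at day 7. Slc31a1, the copper importer, was at -0.84 ± 0.31 at day 21 and was lower at day 7 (-2.11 ± 1.10), with a wide spot SD. The median of these genes at day 21 had no settled sign, from -0.62 on the probes shared by all 3 arrays to 0.52 with median scaling. At day 7, 1 of 4 was higher and 2 were lower, with a median of -0.62, beside 20.2% and 17.9% of all genes. Over 9 alternatives 0 to 1 were higher and 0 to 3 lower, and the median ran from -1.84 to -0.19.

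The enzymes that remove the hydrogen peroxide formed by dismutases were mostly within 2-fold. At day 21, 3 of 21 were at least 2-fold higher and 1 was lower, beside 10.6% and 15.5% of all genes, with a median of 0.17. The higher ones were the peroxiredoxin genes Prdx5 (1.97 ± 0.15) and Prdx1 (1.34 ± 0.15) and the glutaredoxin gene Glrx (1.57 ± 0.15). Gpx8, a peroxidase of the endoplasmic reticulum, was lower at day 21 (-2.58 ± 0.23) and at day 7 (-1.83 ± 0.13). Cat, which encodes catalase, was at 0.38 ± 0.38 at day 21 and higher at day 7 (1.03 ± 0.22). The day 7 value of Cat was past 2-fold in 5 of 9 alternatives, which ran from -0.185 to 1.035. At day 7, 3 of 16 were higher and 2 were lower, shares near or below the 20.2% and 17.9% of all genes, with a median of 0.39. After median scaling 0 were higher and 4 lower, and with the arrays scaled each on its own design 0 were higher and 6 lower, with the median turned to -0.83.

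Of other enzymes that can release superoxide or peroxide, 5 of 7 with a value were at least 2-fold higher at day 21. The other 2 were within 2-fold, and the median was 1.23. Over all genes 10.6% were higher and 15.5% lower. Over 9 alternatives 3 to 6 of the list were higher and 0 to 2 lower, with medians from 1.125 to 1.63. The number of genes with a value changed too, from 3 on the probes shared by all 3 arrays, all higher, to 10 with no filter on dim probes. Xdh, which encodes xanthine dehydrogenase, was 17.6-fold higher (4.13 ± 0.56), and Alox5, the leukotriene-forming lipoxygenase of leukocytes, at least 10.2-fold. Nos3, the endothelial nitric oxide synthase, was at 1.59 ± 0.36, Ero1a, an oxidase of the endoplasmic reticulum, at 1.23 ± 0.37, and Aox1, an aldehyde oxidase, at 1.07 ± 0.15.

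**Figure D4:**
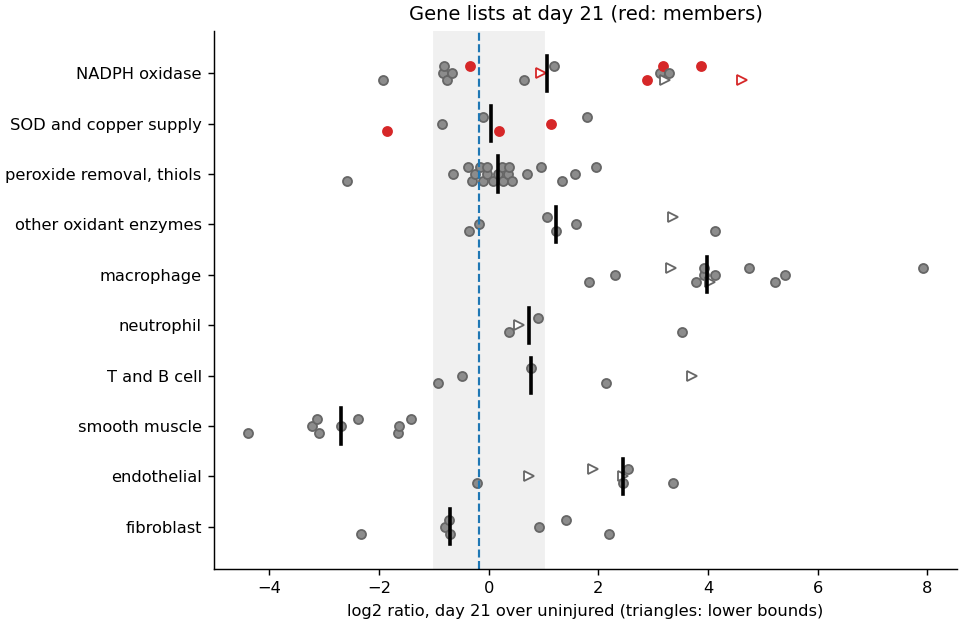
Log2 ratio of day 21 over uninjured for every gene with a value in 10 gene lists; red marks are the 9 genes described, triangles are lower bounds, black bars are list medians, the grey band is within 2-fold and the dashed line is the median of all genes. The oxidase list has its median at 1.07, the macrophage markers at 3.98 and the smooth muscle markers at -2.69.

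Cell type markers moved beside these genes. Over all genes, 10.6% were at least 2-fold higher and 15.5% lower at day 21 than uninjured. At day 7 these shares were 20.2% and 17.9%. Of 13 macrophage and monocyte markers, 12 had a value at day 21 and all 12 were at least 2-fold higher than in the uninjured artery, with a median log2 ratio of 3.98. Their summed level, as multiples of the array's 75th percentile, was 1714 at day 21 and 44.2 in the uninjured artery, and Cd163 was not well above background on either array. For day 7, only 9 of the markers were on shared probes, and levels were scaled on those probes, so these sums cannot be set against the 2 above. At day 7, 8 of these 9 were higher than uninjured, with a median of 3.21 and summed levels of 145 and 9.98. The summed level of the same 9 at day 21, on the same probes and scaling, was 265. The 4 phagocyte oxidase genes, at 2.89 to at least 4.62, lay in the range of these markers, from 1.83 for Ptprc to 7.92 for Lyz2. The part of macrophage number in the higher values of the oxidase genes was not tested.

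Contractile smooth muscle markers were lower at day 21 in 9 of 9 genes, where 15.5% of all genes were lower. Their median was -2.69, with summed levels of 136 at day 21 and 865 in the uninjured artery. The count was 6 of 9 with normexp and 8 of 9 after median scaling. At day 7, 3 of 4 were lower than uninjured, with a median of -2.10. The ratio of Sod3, -1.85 at day 21, stood within the range of these markers, from -4.39 for Actg2 to -1.42 for Smtn, and their part in it was not tested. Fibroblast markers were mixed at day 21, 2 of 7 higher and 1 lower, with a median of -0.70 that had no settled sign (0.02 after cyclic loess, 0.57 on the probes shared by all 3 arrays).

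Among neutrophil markers, 1 of 4 with a value was higher at day 21 than uninjured and 3 of 4 at day 7, with medians of 0.73 and 2.38. The gap between the days depended on the processing: 3 of 4 were higher at day 21 after median scaling, quantile normalization and cyclic loess, with medians of 1.21, 1.13 and 1.30, and with normexp 2 of 4 were higher at day 7, with a median of 1.03. Elane, Cxcr2 and Camp were not well above background on the day 21 and uninjured arrays. Of T and B cell markers, 2 of 5 were higher at day 21, and of endothelial markers 5 of 7, with medians of 0.77 and 2.46, which ran from -0.05 to 1.25 and from 1.17 to 2.94 over 9 alternatives.

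**Figure D5:**
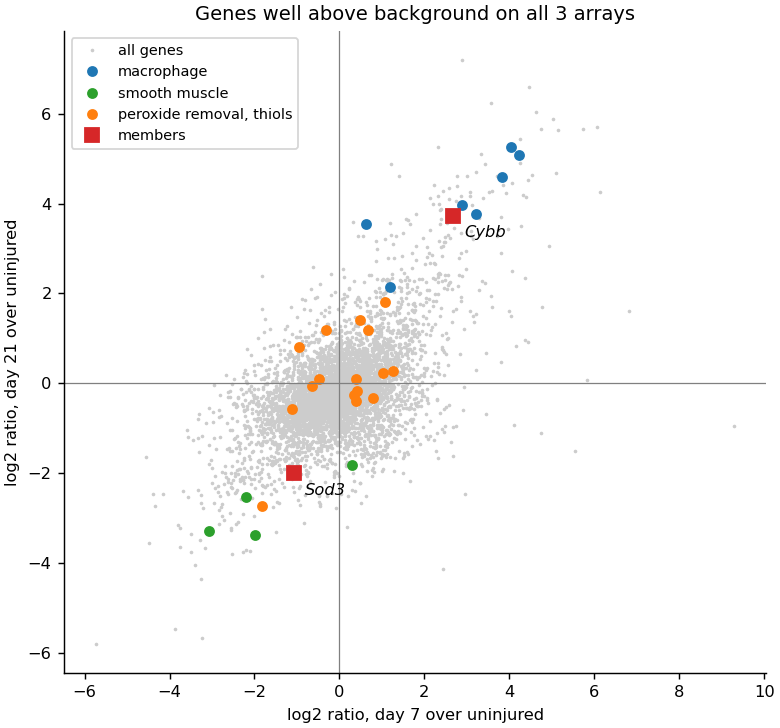
Log2 ratio of day 7 over uninjured (x axis) against that of day 21 over uninjured (y axis) for genes well above background on all 3 arrays, both on shared probes and with the same uninjured array in each ratio. Cybb (2.67 and 3.73) lies among the macrophage markers and Sod3 (-1.07 and -2.0) on the side of most smooth muscle markers.

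The genes with the pattern most like Cybb and Sod3 were sought by the distance between log2 ratios at both times, over 5175 genes well above background on all 3 arrays. Symbols that start with LOC or RGD and a number, or end in Rik, are counted in the 5175 but were left out of the ranking. Nearest to Cybb were the MHC class I gene RT1-A2 (distance 0.21), the activin subunit gene Inhbb (0.27) and the tetraspanin gene Tspan8 (0.29). Nearest to Sod3 were Vxn (0.08), Spats2l (0.09) and Plac9 (0.09). With 3 arrays such a likeness rests on 2 ratios that share the uninjured array, and Nox4 was left out because it was not well above background there.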

How the data were processed

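Cy3-labelled RNA was hybridised to one-colour Agilent arrays, per the labels' protocols. Spot intensity values came from Agilent Feature Extraction, per the file headers in release 11.0.1.1 at day 7 and 10.7.3.1 on the other arrays; the processed signal is background-subtracted and not normalized between arrays. The authors' deposited table holds log2 values with a column median of 7.62 for day 7 and 7.64 for the other columns. Its scale is log2 and its direction that of the scanner signals, while its centring is unknown and how it was normalized is not stated in the sources used.

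Control and outlier-flagged spots (1.46% of gene spots at day 7, 0.274% at day 21 and 0.242% in uninjured) were left out, log2 values of spots of the same probe were averaged, and the 75th percentile of each array was subtracted. Day 21 was compared with uninjured on 40989 probes, and day 7 on 10583 probes present on both designs. Accessions without version were matched to RefSeq symbols (GRCr8, names and promoters only): 17505 probes of the older design (42.7%) and 8032 shared ones (75.9%). A gene was its probe of highest mean signal. A bound divides the bright signal by a floor on the dim array: the weakest signal there that is well above background, or the gene's own signal if that is higher. Medians of lists and of all genes count a bound at its value. The spot SD was interpolated over signal from probes with replicate spots. Number of arrays limits the precision.

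The 9 genes, the gene lists and the alternatives were chosen with earlier results of these data known. Named were all 9 genes, the genes with a day 21 value in the oxidase and dismutase lists, up to 4 genes of each other list in each direction with the largest ratios past 2-fold, and the 3 genes nearest in pattern to each of the 9 that was well above background on all arrays by a shared probe. Alox5, Cat, Ptprc, Smtn and the markers given as not well above background were named after their values were seen. Alternatives were median, quantile and cyclic loess scaling (limma 3.58.1 in R 4.3.3), normexp, flagged spots kept, other filters on dim probes, mean of probes, other probe sets and the deposited table. The planned normexp used mean spot signals; the median signal in the files was used instead, with an offset of 50, chosen after seeing the data. The calculation was tested on simulated arrays in Python 3.11.15.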

Additional observations from a re-analysis of the deposited data

How the results depend on the processing

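With 1 array per group no left-out replicate could be tried, and no alternative shows how arteries of one group vary. No paired analysis was possible because each group has 1 array and the groups share only 1 replicate number. For day 21 against uninjured, the 5 higher genes and the 1 lower gene were within 1.5 times of these counts in every alternative except the restriction to probes on all 3 arrays, which holds 3 of the 9 genes and left 1 higher. For day 7 against uninjured, the count of 2 higher genes was 1 with normexp, and the count of 1 lower gene was 0 after quantile normalization, cyclic loess or normexp and in the authors' deposited table. For day 21 against day 7, the count of 1 higher gene was 0 with normexp; the count of 1 lower gene was 0 with cyclic loess, when the arrays were scaled each on its own design and in the authors' deposited table, and 2 with normexp. The cause of these shifts was not tested. Over all genes, day 21 against uninjured had 1089 higher and 1602 lower, against 1994 and 712 with median scaling, 1568 and 698 with cyclic loess, 1351 and 948 with quantile normalization, 849 and 303 with normexp, 1347 and 3168 with no filter on dim probes, 1347 and 2530 with the positive-and-significant filter and 633 and 1097 on shared probes. Day 7 against uninjured had 1346 and 1190, against 806 and 1800 with median scaling, 364 and 539 with normexp and 252 and 3506 scaled on each design. Day 21 against day 7 had 758 and 1811, against 1487 and 1258 with median scaling, 1394 and 1073 after quantile normalization, 1304 and 1165 after cyclic loess, 434 and 1330 after normexp and 3768 and 451 scaled on each design. Nox4 and Ncf1 were limited by signal: neither was well above background on the uninjured array.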
